A study of Homo sapiens with 5 samples.

Results

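The transcriptome of Ishikawa cells co-cultured with adipocytes in the presence of EX527 was compared with that of Ishikawa cells in the same co-culture without it. The comparison takes 4 of the 5 poly(A) RNA libraries of the series, chosen by their labels as 2 EX527 co-cultures and 2 untreated co-cultures. Ishikawa is an established line grown from a human endometrioid adenocarcinoma of the endometrium. In all 4 libraries the cells had spent 3 days in the lower chamber of a transwell, below a membrane with 0.4 µm pores. Adipocytes, differentiated beforehand from preadipocytes, occupied the upper chamber. The fifth library, a monoculture without adipocytes or EX527, is given as a level beside the results. The labels used here give neither the dose nor the duration of EX527, nor a vehicle for the untreated co-culture, and no library holds EX527 without adipocytes. An effect of EX527 on the cancer cells and one on the adipocytes above them can therefore not be told apart. Whether replicates are separate cultures is not stated, so the spread behind each p-value may be technical. In bulk RNA, fewer cells of a type and less RNA per cell cannot be told apart.

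SIRT1 is a deacetylase of the sirtuin family that uses NAD as a cosubstrate. It removes acetyl groups from histones and from transcription factors, among them p53, the NF-kB subunit RELA, FOXO factors and PGC-1alpha, and links the NAD level to gene expression. EX527, also called selisistat, is an indole compound that inhibits SIRT1 more strongly than the other sirtuins. It acts on the enzyme, so the level of SIRT1 mRNA does not check the treatment.

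The EX527 replicates differed from each other far more than the co-culture replicates did. Libraries held 45653845 to 52269963 reads assigned to genes. EX527 replicate 1 had 33325 genes with 10 reads or more, against 27026 in EX527 replicate 2 and 26248 and 27103 in co-culture. Of these, 6064 had fewer than 10 reads in each of the other 3 co-culture libraries, and 1951 were lincRNA genes, 1362 coding genes and 937 processed pseudogenes. Among the 11268 genes at a mean log2 CPM of 4 or more (CPM, reads scaled to a common library total after TMM normalisation), the SD of the log2 difference between replicates was 0.601 with EX527 and 0.111 in co-culture. Over all 34658 genes tested, 9979 (28.8%) were at least 2-fold higher and 4646 (13.4%) at least 2-fold lower in EX527 replicate 1 than in replicate 2, and between the co-culture replicates 1730 (4.99%) and 2070 (5.97%). Among the 11268 genes, 1479 (13.1%) were at least 2-fold lower in EX527 replicate 1 than in replicate 2 and 153 (1.36%) were at least 2-fold higher, and no gene differed 2-fold between the co-culture replicates.

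The difference of EX527 replicate 1 from co-culture moved with base composition and gene span. Coding genes at a mean log2 CPM of 4 or more were divided into 10 equal bins by the GC content of their longest annotated transcript. In the bin with the lowest GC content (29.2% to 38.0%, 992 genes) the median log2 difference of replicate 1 from the co-culture mean was 0.07, and in the highest (61.2% to 74.2%) it was -0.97. For replicate 2 these medians were -0.01 and -0.12. The difference between the co-culture replicates ran from -0.04 to 0.13. Among coding genes with a mean log2 CPM from 0 to 4, the bin with the longest spans (246 to 2474 kb) had a median of 2.02 in replicate 1 and 0.38 in replicate 2. The part of these properties in the results that follow was not tested, and each EX527 library is therefore given separately.

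**Figure D1:**
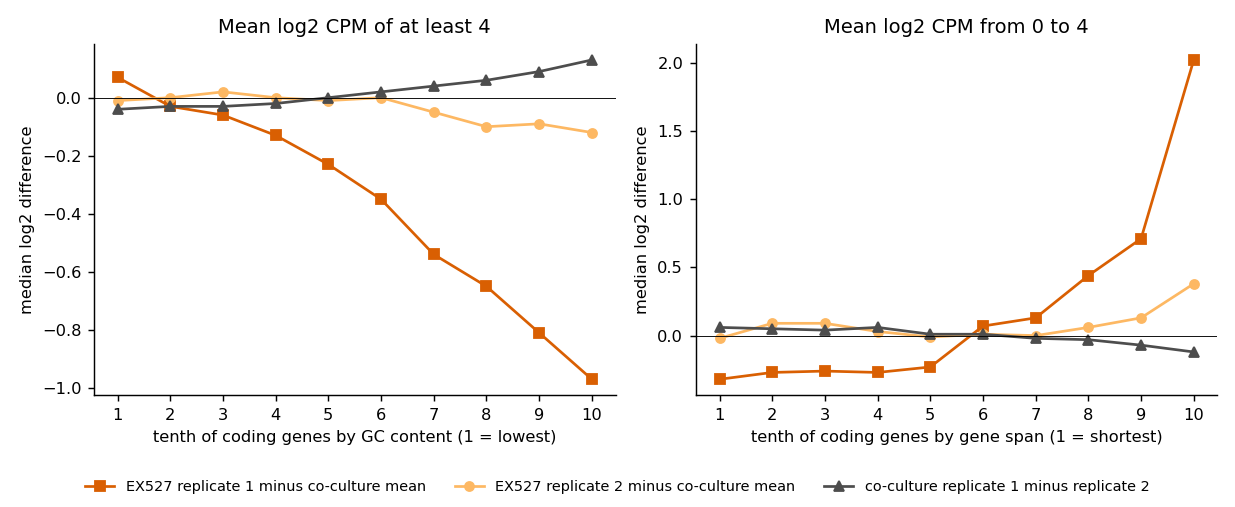
Median log2 difference from the co-culture mean of EX527 replicates 1 and 2, and between the co-culture replicates, for 10 bins of coding genes by GC content (left, mean log2 CPM of at least 4) and by gene span (right, mean log2 CPM from 0 to 4). Replicate 1 falls from 0.07 to -0.97 along GC content and reaches 2.02 at the longest genes, while replicate 2 stays between -0.12 and 0.02 on the left.

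Both EX527 libraries held markers of the labelled epithelium. The epithelial gene EPCAM was read at 414 and 423 CPM in untreated co-culture and at 245 and 203 CPM under EX527, replicate 1 first. PAX8, a transcription factor of the Müllerian epithelium, was read at 1201 and 1178 CPM in untreated co-culture and at 321 and 794 CPM under EX527. The adipocyte genes ADIPOQ, CIDEC and LEP and the fibroblast genes LUM and THY1 stayed below 1 CPM in all 4 libraries. By total reads alone, without TMM scaling, 3 reads correspond to 0.0574 to 0.0657 CPM in these libraries. TMM scaling raises the level of 3 reads in untreated co-culture and lowers it under EX527. The fibroblast gene PDGFRA was read at 1.39 and 1.19 CPM in untreated co-culture and at 1.66 and 0.873 CPM under EX527. DCN, the matrix proteoglycan decorin, was read at 0 and 0.0821 CPM in untreated co-culture and at 1.24 and 0 CPM under EX527. PLIN1, which coats lipid droplets, was read at 1.89 and 2.67 CPM in untreated co-culture and at 2.54 and 3.77 CPM under EX527.

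Of 34658 genes tested, edgeR's quasi-likelihood test called 0 (0.0%) at a Benjamini-Hochberg adjusted p under 0.05. The smallest adjusted p in edgeR was 0.0748 and was shared by 19 genes. At an unadjusted p under 0.05 the same test had 3489 genes higher (10.1%) and 3216 lower (9.28%). DESeq2's Wald test called 1867 higher (5.39%) and 1429 lower (4.12%), and limma-voom called 0. Without EX527 replicate 1, edgeR called 6371 genes higher (21.7%) and 6630 lower (22.5%), where the co-culture pair is the sole source of spread. Without EX527 replicate 2 it called 13405 higher (39.1%) and 10669 lower (31.1%). As a description without a test, genes were called separated when both EX527 libraries lay at least 2-fold beyond the nearer co-culture library. By that rule 2516 genes (7.26%) were higher and 1344 (3.88%) lower with EX527. Counts of list members by this rule are to be read against these shares. Counts of list members by DESeq2 are to be read against its 5.39% higher and 4.12% lower. Among genes at a mean log2 CPM of 4 or more, 121 (1.07%) were higher and 438 (3.89%) lower. A further 7091 genes (20.5%) lay 2-fold above both co-culture libraries in EX527 replicate 1 only, against 762 (2.2%) in replicate 2 only, and 4110 (11.9%) and 1364 (3.94%) lay 2-fold below them in that way.

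The 10 coding genes with the widest gap upward and the 10 with the widest gap downward were taken at a mean log2 CPM of 3 or more, so that wider gaps at lower levels are left out. STK32A, a serine/threonine kinase gene (GRCh38 chromosome 5, from 147234963 to 147387855, plus strand), was read at 2.23 and 2.38 CPM in untreated co-culture and at 43.6 and 38.2 CPM under EX527. LAMP3, a lysosomal membrane protein induced by stress and interferon, was read at 7.82 and 7.23 CPM in untreated co-culture and at 117 and 167 CPM under EX527. DUSP15, a dual-specificity phosphatase, was read at 3.46 and 2.81 CPM in untreated co-culture and at 41.9 and 50.5 CPM under EX527. By the rule of choice the groups were far apart in each of these, and the EX527 libraries differed little. GADD45A, which slows the cell cycle after stress, was read at 13.0 and 12.4 CPM in untreated co-culture and at 127 and 116 CPM under EX527. G0S2, an inhibitor of the triglyceride lipase ATGL, was read at 7.58 and 8.93 CPM in untreated co-culture and at 93.7 and 73.5 CPM under EX527. Other members of the 10 were NIBAN1, a stress-induced gene, ID3 and ID4, which block bHLH transcription factors, and the uridine phosphorylase gene UPP1. Log2 fold changes of the 10 ranged from 2.87 to 4.23 with an SE of 0.20 to 0.29, and edgeR's adjusted p ranged from 0.0748 to 0.0768. By DESeq2 all 10 rose, which their choice by widest gap favours. The monoculture level was 23.1 CPM for STK32A, 166 CPM for LAMP3, 148 CPM for GADD45A and 24.3 CPM for G0S2, and only for DUSP15, at 2.67 CPM, was it below both co-culture libraries.

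Downward, DHRS2, a short-chain dehydrogenase, was read at 44.6 and 43.7 CPM in untreated co-culture and at 1.29 and 1.62 CPM under EX527 (log2 fold change -4.93, SE 0.27). MEOX1, a homeobox factor, was read at 277 and 275 CPM in untreated co-culture and at 11.9 and 14.1 CPM under EX527 (log2 fold change -4.41, SE 0.22). Both pairs of libraries were tight for these genes. FOXJ1, the transcription factor of motile cilia, was read at 56.3 and 51.5 CPM in untreated co-culture and at 0.989 and 3.53 CPM under EX527. MAL, a proteolipid of apical membrane sorting, was read at 1008 and 969 CPM in untreated co-culture and at 37.7 and 75.9 CPM under EX527. For FOXJ1 and MAL replicate 1 was the lower, and replicate 2 still lay far below co-culture. IL1R2, the decoy receptor of interleukin 1, was read at 67.8 and 73.2 CPM in untreated co-culture and at 5.86 and 7.03 CPM under EX527. The remaining members were UNC93A, FOLH1 (the folate hydrolase PSMA), the extracellular matrix peroxidase PXDN, TCL1B and METTL7A. Over the 10 genes log2 fold changes ranged from -4.93 to -3.04 with an SE of 0.22 to 0.53. The adjusted p of edgeR ranged from 0.0748 to 0.0898. By DESeq2 all 10 fell, which their choice by widest gap favours. Monoculture levels were 4.08 CPM for DHRS2, 42.5 CPM for MEOX1, 5.65 CPM for FOXJ1 and 104 CPM for MAL.

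**Figure D2:**
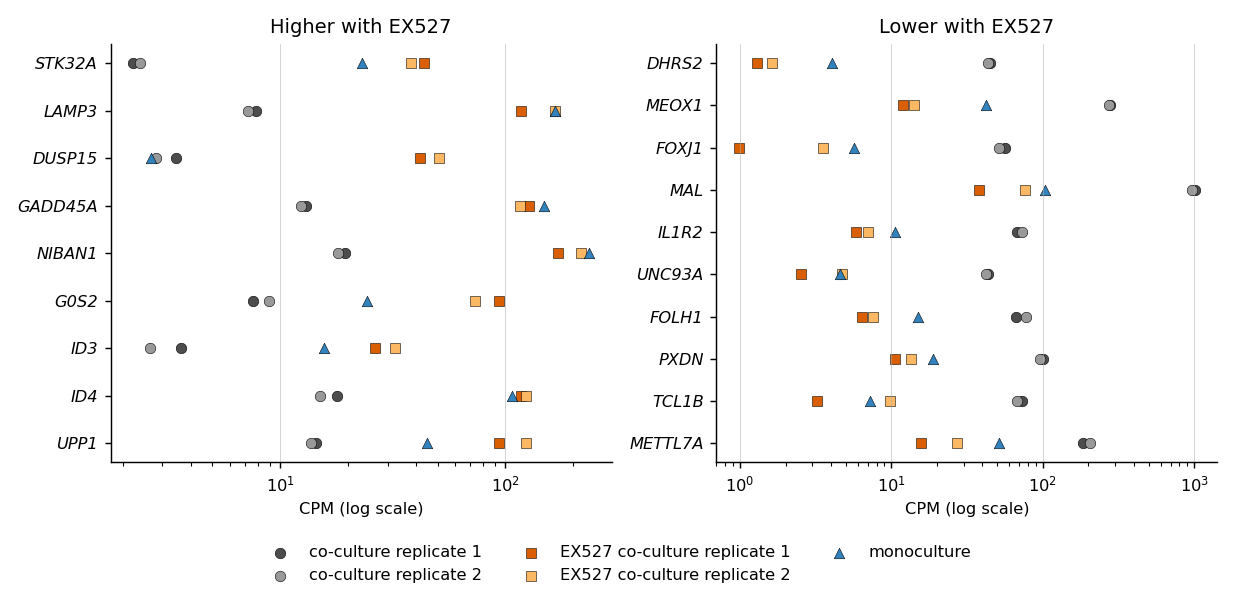
CPM on a log scale in each of the 5 libraries for genes with the widest gap upward (left) and the 10 with the widest gap downward (right) between the EX527 and co-culture libraries. Points stand for single libraries; LAMP3 lies at 7.82 and 7.23 CPM in untreated co-culture and at 117 and 167 CPM under EX527, and DUSP15 is the gene on the left whose monoculture point lies with co-culture.

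Genes of mitosis were lower with EX527 in both replicates. Cyclin B and its kinase drive entry into mitosis, and the spindle checkpoint, kinesin motors and cytokinesis proteins carry it through. The summed level of the 36 mitotic genes was 5893 and 5858 CPM in untreated co-culture and 1521 and 1972 CPM under EX527, and 3307 CPM in monoculture. Their median log2 fold change was -1.72, with -1.95 in replicate 1 and -1.55 in replicate 2, where all genes tested had medians of 0.15, 0.12 and 0.00. By the 2-fold rule 31 of 36 were lower and 0 higher, beside 3.88% and 7.26% of all genes. By DESeq2 35 of 36 fell, beside 4.12% of all genes. For all 36 both EX527 libraries lay below both co-culture libraries, beside 26.8% of all genes.

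HMMR, a spindle-associated hyaluronan receptor, was read at 112 and 112 CPM in untreated co-culture and at 18.1 and 18.8 CPM under EX527 (log2 fold change -2.60, SE 0.19, edgeR adjusted p = 0.0748). CCNB1, cyclin B1, was read at 368 and 363 CPM in untreated co-culture and at 82.3 and 91.4 CPM under EX527. TOP2A, the topoisomerase that untangles chromosomes, was read at 510 and 545 CPM in untreated co-culture and at 151 and 150 CPM under EX527. The groups did not overlap for any of these, and the EX527 replicates differed little. Both follow in part from the choice of these genes as the members with the smallest edgeR p. HMMR overlaps an antisense gene whose reads cannot be told apart from its own.

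Replication genes were lower by less. Over 32 genes of DNA replication the median log2 fold change was -0.91. By the 2-fold rule 7 were lower and 0 higher, beside 3.88% and 7.26% of all genes. By DESeq2 15 fell, beside 4.12% of all genes. RRM2, the small subunit of ribonucleotide reductase, was read at 125 and 125 CPM in untreated co-culture and at 18.2 and 26.4 CPM under EX527. CDC45, a component of the replicative helicase, was read at 49.3 and 49.4 CPM in untreated co-culture and at 15.0 and 15.8 CPM under EX527. Each EX527 library was clearly below both co-culture libraries, which the choice of these genes by smallest edgeR p favours. Of 18 histone genes tested 4 were lower by the 2-fold rule and 0 higher (median -0.84). Most histone transcripts lack a poly(A) tail, so poly(A) selection captures them poorly.

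Among CDK inhibitors the members differed in direction. CDKN1C, which encodes p57, was read at 64.2 and 56.8 CPM in untreated co-culture and at 9.36 and 13.2 CPM under EX527, and fell by DESeq2. CDKN2B, which encodes p15, was read at 2.97 and 3.28 CPM in untreated co-culture and at 7.64 and 8.90 CPM under EX527, and rose by DESeq2. CDKN1A, which encodes p21 and is a p53 target, was read at 286 and 278 CPM in untreated co-culture and at 238 and 521 CPM under EX527, so the EX527 replicates lay on either side of co-culture. Over 27 p53 target genes the median log2 fold change was 0.06. Beside 7.26% and 3.88% of all genes, 2 of them were higher and 2 lower by the 2-fold rule. The higher ones were GADD45A and PMAIP1, a pro-apoptotic BH3 gene, and the lower ones TP53I3 and FAS, the death receptor.

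Promoters of mitotic genes are known to carry a CHR element (TTTGAA) and CCAAT boxes. RefSeq promoter windows of GRCh38.p14, 250 bases before to 50 bases after the start, were matched by symbol to 31 of the 36 mitotic genes. On either strand TTTGAA was found in 20 (64.5%) and CCAAT in 24 (77.4%), against 15.4% and 35.7% of all 27305 windows. For replication genes the same letters were found in 1 of 28 (3.57%) and 17 of 28 (60.7%). The windows of HMMR (chr5:163460382-163460681, plus strand) and TOP2A (chr17:40417847-40418146, minus strand) are shown because these genes hold both motifs and have small p-values among the mitotic genes. They are written 5′ to 3′, and capitals mark TTTGAA and CCAAT or their reverse complements, TTCAAA and ATTGG.
HMMR: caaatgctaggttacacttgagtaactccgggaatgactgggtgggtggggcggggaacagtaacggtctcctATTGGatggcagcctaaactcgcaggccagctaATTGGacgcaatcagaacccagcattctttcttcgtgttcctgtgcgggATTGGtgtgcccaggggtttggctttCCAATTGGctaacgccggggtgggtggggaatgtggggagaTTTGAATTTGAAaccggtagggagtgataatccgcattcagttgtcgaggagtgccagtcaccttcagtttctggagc
TOP2A: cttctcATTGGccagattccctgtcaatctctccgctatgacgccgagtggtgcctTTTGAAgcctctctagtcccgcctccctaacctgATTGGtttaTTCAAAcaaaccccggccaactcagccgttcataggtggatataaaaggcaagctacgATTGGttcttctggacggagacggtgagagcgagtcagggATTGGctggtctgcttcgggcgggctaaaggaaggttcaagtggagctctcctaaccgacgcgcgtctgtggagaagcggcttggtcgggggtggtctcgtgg
The HMMR window held 2 matches to TTTGAA and 5 to CCAAT, and the TOP2A window held 2 and 4. A match is a description of letters and does not show that a factor was bound.

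**Figure D3:**
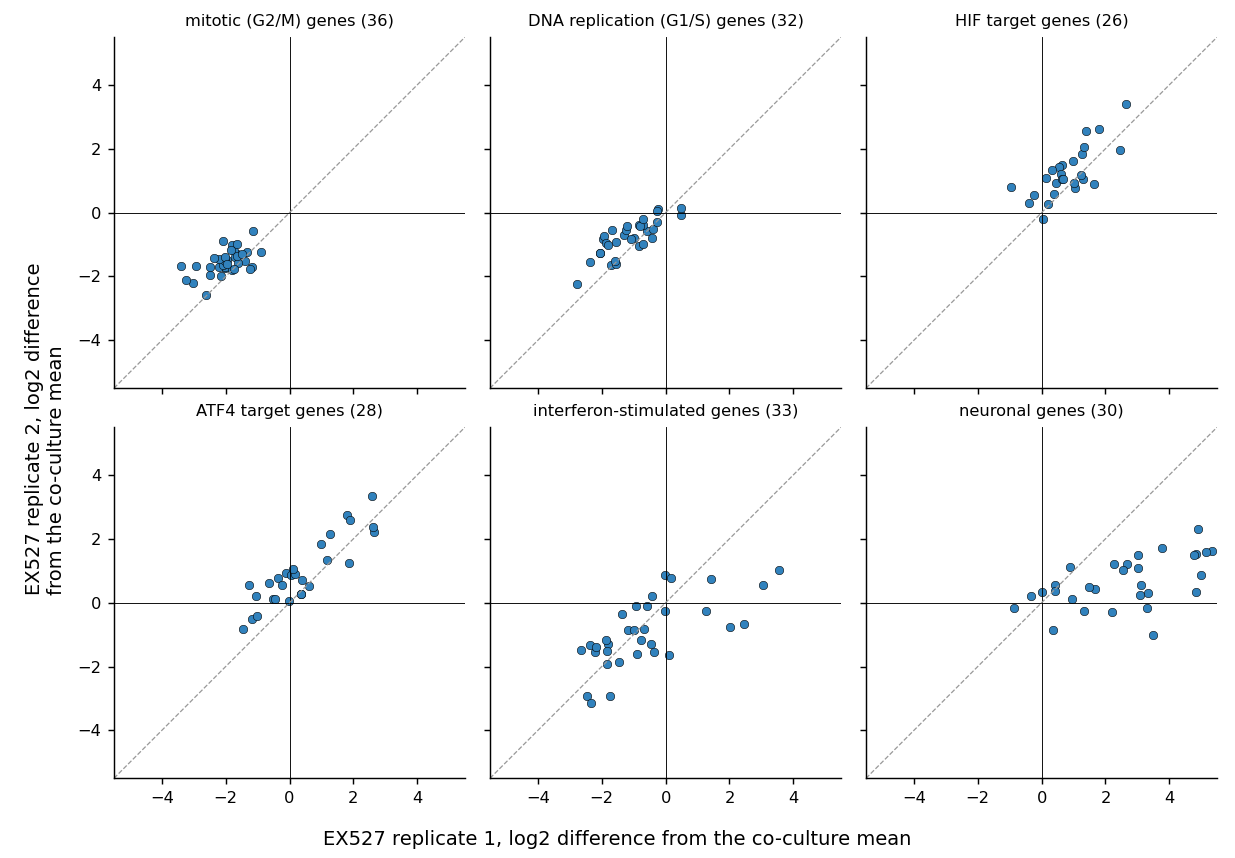
Log2 difference from the co-culture mean in EX527 replicate 1 (horizontal) and replicate 2 (vertical) for each tested gene of 6 lists, with the number of genes in parentheses and a dashed line of equality. All 36 mitotic genes lie below 0 in both replicates, HIF targets lie mostly above 0, and neuronal genes lie far to the right, high in replicate 1.

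Genes induced by the HIF transcription factors, which act when oxygen is low or their degradation is blocked, were higher with EX527. Over 26 genes the median log2 fold change was 0.95, with 0.67 in replicate 1 and 1.08 in replicate 2. By the 2-fold rule 8 were higher and 0 lower, beside 7.26% and 3.88% of all genes, and by DESeq2 16 rose. Without EX527 replicate 1, edgeR called 25 of 26 higher and 0 lower, beside 21.7% and 22.5% of all genes. Without EX527 replicate 2 it called 21 higher and 3 lower, beside 39.1% and 31.1%. ANGPTL4, a secreted inhibitor of lipoprotein lipase that is also induced by PPARs, was read at 10.9 and 11.2 CPM in untreated co-culture, at 69.4 and 117 CPM under EX527, and at 11 CPM in monoculture. ADM, the vasodilator peptide adrenomedullin, was read at 12.9 and 13.3 CPM in untreated co-culture and at 72.1 and 51.7 CPM under EX527. VEGFA, the angiogenic growth factor, was read at 157 and 155 CPM in untreated co-culture and at 378 and 562 CPM under EX527. For all 3 the EX527 libraries were above both co-culture libraries, in varying order. They were named for a small edgeR p or after their values were seen, which favours such a gap. LOX, NDRG1, SLC2A3, EGLN3 and ERO1A made up the rest of the 8. In monoculture ADM was read at 26.6 CPM, VEGFA at 552 CPM, LOX at 125 CPM and NDRG1 at 125 CPM. SLC2A3 was there at 5.0 CPM, EGLN3 at 125 CPM and ERO1A at 240 CPM. Of the 8, only ANGPTL4 did not lie above both co-culture libraries in monoculture. In contrast, 19 glycolysis genes had a median of -0.36 with 0 separated in either direction. PKM was read at 2015 and 1939 CPM in untreated co-culture and at 759 and 1227 CPM under EX527, and ENO2, neuronal enolase, at 88.1 and 88.9 CPM in untreated co-culture and at 175 and 270 CPM under EX527.

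The core HIF motif ACGTG was found on either strand in 13 of 22 matched HIF target windows (59.1%) against 21.6% of all windows. The ANGPTL4 window (chr19:8363905-8364204, plus strand, GRCh38.p14) is shown as the HIF target with the smallest p that holds it, with the match (CACGT on this strand) in capitals.
ANGPTL4: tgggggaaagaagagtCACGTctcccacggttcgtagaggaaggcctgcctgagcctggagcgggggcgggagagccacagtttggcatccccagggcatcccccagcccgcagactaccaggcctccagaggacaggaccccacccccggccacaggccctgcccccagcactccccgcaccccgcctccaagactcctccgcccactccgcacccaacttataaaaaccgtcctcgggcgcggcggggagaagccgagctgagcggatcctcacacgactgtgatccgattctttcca

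Stress genes of the ATF4 pathway, which responds to amino acid shortage and to stress of the endoplasmic reticulum, were higher in part. Of 28 genes 8 were higher by the 2-fold rule and 0 lower, beside 7.26% and 3.88% of all genes, with a median of 0.50 (0.15 in replicate 1 and 0.73 in replicate 2). By DESeq2 9 rose and 1 fell. Without EX527 replicate 1 edgeR called 22 higher and 3 lower, and without EX527 replicate 2 it called 14 higher and 10 lower, beside the shares of all genes given for the HIF targets. DDIT3, which encodes CHOP, was read at 38.8 and 38.7 CPM in untreated co-culture and at 244 and 179 CPM under EX527. ATF3 was read at 8.0 and 7.53 CPM in untreated co-culture and at 46.7 and 78.7 CPM under EX527. GDF15, a secreted stress cytokine, was read at 101 and 86.0 CPM in untreated co-culture and at 348 and 563 CPM under EX527. These 3 were separated widely in both replicates, which their choice by smallest edgeR p favours. In monoculture DDIT3 was read at 225 CPM, ATF3 at 81.3 CPM and GDF15 at 431 CPM. Among 21 genes of the unfolded protein response 3 were higher by the 2-fold rule and 0 lower. HSPA5, the chaperone BiP, was read at 681 and 666 CPM in untreated co-culture, at 1826 and 2101 CPM under EX527, and at 5529 CPM in monoculture. Of 18 cytosolic heat shock genes 1 was lower and 0 higher, a share near the 3.88% of all genes. HSPB1 was read at 290 and 259 CPM in untreated co-culture and at 70.2 and 95 CPM under EX527. Of 30 immediate early genes 6 were higher by the 2-fold rule and 1 lower, and FOSL1, an AP-1 subunit, was read at 0.337 and 0.370 CPM in untreated co-culture and at 5.44 and 4.66 CPM under EX527. The lower one was EGR1, a zinc finger factor, at 341 and 301 CPM in untreated co-culture and at 69.3 and 123 CPM under EX527.

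**Figure D4:**
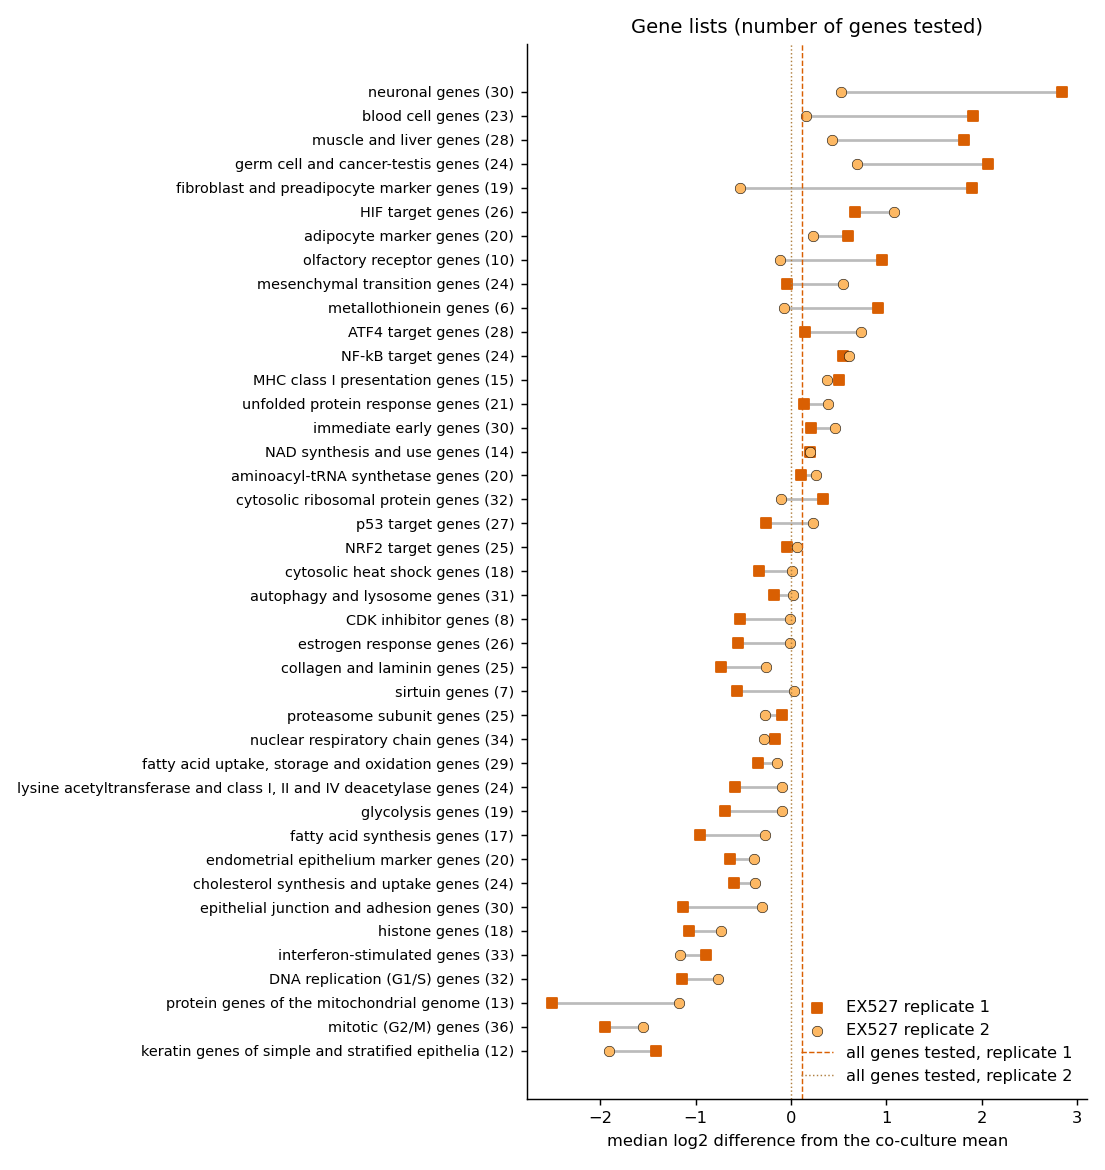
Median log2 difference from the co-culture mean over the tested genes of each of 41 lists, in EX527 replicates 1 and 2, with the medians of all genes tested as vertical lines. Mitotic genes lie at -1.95 and -1.55, and the neuronal, blood, muscle and liver, and germ cell lists lie between 1.81 and 2.84 in replicate 1 and between 0.16 and 0.69 in replicate 2.

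Interferon-stimulated genes were lower, at low levels. Of 33 genes 12 were lower by the 2-fold rule and 1 higher, beside 3.88% and 7.26% of all genes. The median was -0.86. By DESeq2 7 fell and 0 rose, beside 4.12% and 5.39% of all genes. IFI6 was read at 10.6 and 11.3 CPM in untreated co-culture, at 1.96 and 1.43 CPM under EX527 and at 1.24 CPM in monoculture. BST2, which tethers budding viruses, was read at 13.9 and 14.1 CPM in untreated co-culture and at 3.95 and 3.66 CPM under EX527. The higher gene was XAF1, with no reads in co-culture and 0.441 and 0.0426 CPM under EX527. Its level in EX527 replicate 2 lay below that of 3 reads. HLA-B, an MHC class I heavy chain, went the other way, at 8.86 and 7.90 CPM in untreated co-culture, 44.3 and 49.0 CPM under EX527 and 50.6 CPM in monoculture, and rose by DESeq2. HLA genes share sequence, and how shared reads were counted is not given in the sources used here. Of 24 NF-kB target genes tested 4 were higher by the 2-fold rule and 1 lower, most of them below 3 CPM. TNFAIP2 was read at 70.9 and 66.8 CPM in untreated co-culture and at 9.73 and 21.9 CPM under EX527, and TNF at 0.0899 and 0.0821 CPM in untreated co-culture and at 1.98 and 1.02 CPM under EX527.

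SREBF1, which encodes the main activator of fatty acid synthesis genes, was read at 383 and 353 CPM in untreated co-culture and at 41.5 and 106 CPM under EX527. FASN, fatty acid synthase, was read at 1006 and 913 CPM in untreated co-culture and at 110 and 419 CPM under EX527. Of 17 fatty acid synthesis genes 4 were lower by the 2-fold rule and 0 higher (median -0.95 in replicate 1 and -0.27 in replicate 2), and 6 fell by DESeq2. ME1 and LPIN1 of these 17 lay above co-culture in both replicates, as did 28.3% of all genes. For 24 cholesterol genes the median was -0.51, and 2 were lower and 0 higher. PPARG, the lipid-sensing nuclear receptor, was read at 7.40 and 6.90 CPM in untreated co-culture and at 18.6 and 25.9 CPM under EX527, and rose by DESeq2. All 13 protein genes of the mitochondrial genome lay below co-culture in both replicates, beside 26.8% of all genes. By the 2-fold rule 9 were lower, beside 3.88% of all genes. MT-CO1, cytochrome oxidase subunit I, was read at 23678 and 24260 CPM in untreated co-culture and at 4022 and 9740 CPM under EX527. The share of all reads on these 13 genes was 4.99% and 5.20% in untreated co-culture, 1.19% and 2.47% under EX527 and 1.90% in monoculture. Nuclear genes of the respiratory chain had a median of -0.22, with 0 of 34 separated.

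Epithelial and hormone response genes included several of the wider differences. KRT8 and KRT18, the keratins of simple epithelium, were each lower in both EX527 libraries. KRT18 was read at 1194 and 1066 CPM in untreated co-culture and at 226 and 288 CPM under EX527. KRT23 was read at 9.78 and 9.20 CPM in untreated co-culture and at 0.318 and 0.255 CPM under EX527. Of 12 keratin genes 7 were lower by the 2-fold rule and 0 higher, beside 3.88% and 7.26% of all genes. By DESeq2 5 fell, beside 4.12% of all genes. KRT8, KRT18 and KRT19, however, have many processed pseudogenes that can share reads. The median of 30 junction genes was -0.64, 4 being lower and 0 higher, and CDH1, E-cadherin, was read at 243 and 249 CPM in untreated co-culture and at 90.2 and 178 CPM under EX527. Among 24 mesenchymal transition genes 3 were higher and 3 lower by the 2-fold rule, the higher ones being the intermediate filament gene VIM and the repressors of E-cadherin ZEB1 and ZEB2. TAGLN, an actin-binding protein, was read at 72.7 and 71.1 CPM in untreated co-culture and at 13.0 and 15.3 CPM under EX527. PGR, the progesterone receptor and an estrogen receptor target, was read at 0.270 and 0.164 CPM in untreated co-culture, at 5.81 and 7.54 CPM under EX527 and at 6.27 CPM in the monoculture library (EX527 against untreated co-culture, log2 fold change 4.94, SE 0.48, edgeR adjusted p = 0.0768). AGR2, a disulfide isomerase that estrogen also induces, was read at 21.3 and 21.3 CPM in untreated co-culture and at 1.54 and 2.62 CPM under EX527. These 2 estrogen response genes thus lay on opposite sides, and the 26 genes of that list had a median of -0.16, with 4 higher and 2 lower. ESR1, the estrogen receptor, was read at 22 and 20.9 CPM in untreated co-culture and at 32.9 and 20.5 CPM under EX527.

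COL1A2, a chain of type I collagen, was read at 20.7 and 20.4 CPM in untreated co-culture and at 70.3 and 189 CPM under EX527, while COL3A1 was at 27.7 and 25.9 CPM and then at 5.17 and 9.58 CPM. The 25 collagen and laminin genes had 3 higher and 2 lower by the 2-fold rule, beside 7.26% and 3.88% of all genes. AKR1C3, an aldo-keto reductase, was read at 79.3 and 77.8 CPM in untreated co-culture and at 29.0 and 30.4 CPM under EX527. Of 25 NRF2 targets 2 were lower and 1 higher by the 2-fold rule. Among 31 autophagy and lysosome genes 2 were higher and 0 lower, a share near the 7.26% of all genes. Of all genes at a mean log2 CPM of 4 or more, 1.07% were higher. The 2 autophagy and lysosome genes were LAMP3 and MAP1LC3B, which encodes an LC3 protein. MAP1LC3B was read at 48.4 and 49.5 CPM in untreated co-culture and at 110 and 117 CPM under EX527. FOLR1, the folate receptor of secretory epithelium, was read at 34.5 and 31.5 CPM in untreated co-culture and at 11.6 and 14.5 CPM under EX527, and the 20 endometrial epithelium markers had 2 higher and 2 lower. Neither the 32 ribosomal protein genes, the 20 aminoacyl-tRNA synthetase genes nor the 25 proteasome genes had a separated member, and their medians were 0.15, 0.17 and -0.21. In 29 genes of fatty acid uptake, storage and oxidation 1 was higher and 0 lower, and in 6 metallothionein genes 0 were higher and 1 lower.

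By the 2-fold rule 0 of the 7 sirtuin genes were separated, SIRT1, the target of EX527, among them. Both EX527 libraries lay below both co-culture libraries for 3 of the 7, beside 26.8% of all genes. They lay above for 1, beside 28.3% of all genes. The lower ones were SIRT1, SIRT3 and SIRT5, and the higher one was SIRT4. SIRT1 was read at 30.3 and 32.9 CPM in untreated co-culture, at 26.2 and 29.7 CPM under EX527 and at 42.7 CPM in the monoculture library (EX527 against untreated co-culture, log2 fold change -0.18, SE 0.20, edgeR adjusted p = 0.597). With library size scaling alone, which moved the median of all genes from 0.15 to 0.42, the SIRT1 value was 0.09. SIRT3, a mitochondrial sirtuin, was read at 32.3 and 32.6 CPM in untreated co-culture and at 17.1 and 19.7 CPM under EX527, with an edgeR adjusted p of 0.165. SIRT2, SIRT6 and SIRT7 were lower in replicate 1 than in replicate 2, which was above both co-culture libraries. Of 14 genes of NAD synthesis and use 3 were higher by the 2-fold rule, all below 3 CPM, and 0 were lower. NAMPT, the rate-limiting enzyme of NAD salvage, was read at 51.0 and 51.1 CPM in untreated co-culture and at 86.3 and 89.3 CPM under EX527, and rose by DESeq2. Among 24 acetyltransferase and non-sirtuin deacetylase genes 0 were separated. HDAC1 was read at 206 and 203 CPM in untreated co-culture and at 76.7 and 105 CPM under EX527, and fell by DESeq2.

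Genes that differed most between the EX527 replicates were of different kinds in each direction. Those higher in replicate 1 (among them PCDH15, LRP1B, ROBO2, DMD, DLG2, CTNNA3 and IL1RAPL2) span 1202 to 2242 kb. PCDH15, a protocadherin of hair cells, was read at 37.9 CPM in EX527 replicate 1, at 4.41 CPM in replicate 2 and at 5.01 and 6.51 CPM in untreated co-culture. DMD, dystrophin, was read at 37.0 CPM in replicate 1, at 7.75 CPM in replicate 2 and at 10.3 and 9.48 CPM in untreated co-culture. In both, replicate 2 lay below co-culture and replicate 1 well above it. Lower in replicate 1 were ZBED6, GOLGA8Q, GOLGA8O, TTYH3, NOTCH3, NCR3LG1, DMWD and LDB1. NOTCH3, a Notch receptor, was read at 28.1 CPM in replicate 1, at 136 CPM in replicate 2 and at 221 and 208 CPM in untreated co-culture. LDB1, an adaptor of LIM-domain factors, was read at 11.9 CPM in replicate 1, at 56.0 CPM in replicate 2 and at 78.4 and 66.9 CPM in untreated co-culture. ZBED6 lies within another gene, and GOLGA8Q and GOLGA8O are near-identical copies, so their counts are uncertain.

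Of the markers of tissues unrelated to endometrium, more reached 10 reads in EX527 replicate 1 than in the other co-culture libraries. The same held for all genes, with 33325 there, 27026 in replicate 2, and 26248 and 27103 in co-culture. Of 30 neuronal genes 30 had 10 reads or more in replicate 1, against 24 in replicate 2 and 20 and 23 in co-culture. Their summed level was 350 and 223 CPM under EX527 and 192 and 190 CPM in untreated co-culture. For 30 blood cell genes the counts were 24, 13, 11 and 14, and for 32 muscle and liver genes 28, 19, 16 and 15, in the order EX527 replicates 1 and 2 and co-culture replicates 1 and 2. Germ cell genes gave 25, 17, 15 and 17 of 30, and olfactory receptors 11, 4, 4 and 4 of 30. The blood cell sum was 58.7 and 37.2 CPM under EX527 and 40.3 and 40.4 CPM in untreated co-culture. For muscle and liver genes it was 103 and 86.3 CPM and then 75.7 and 74.5 CPM. The summed levels of germ cell genes and olfactory receptors did not follow their counts. The germ cell sum was 175 and 208 CPM under EX527 and 182 and 167 CPM in untreated co-culture, and the olfactory receptor sum was 6.74 and 5.79 CPM under EX527 and 8.88 and 8.68 CPM in untreated co-culture. Fibroblast and preadipocyte markers had 10 reads or more in 19 of 19 genes in replicate 1, 10 in replicate 2, and 8 and 11 in co-culture, with summed levels of 175 and 334 CPM under EX527 and 346 and 325 CPM in untreated co-culture. Beside 7.26% and 3.88% of all genes, adipocyte markers had 7 of 20 genes higher by the 2-fold rule and 0 lower. Of these, RETN and ADRB3 had no reads in co-culture, ADIPOQ and CIDEA stayed below 3 CPM, and PPARG, CEBPA and LPL are also expressed outside adipocytes. The summed adipocyte level was 181 and 249 CPM under EX527, 193 and 194 CPM in untreated co-culture and 328 CPM in monoculture, which held no adipocytes. The part of such reads in the other results was not tested.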

How the data were processed

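Poly(A) RNA libraries were made from 500 ng of total RNA with 12 PCR cycles, per the labels' protocols. The authors deposited raw counts per gene for 57992 genes, and per the submitters' processing notes reads went through FastQC, MultiQC, fastp, STAR 2 on GRCh38.p7 and featureCounts, with DESeq2 also named. Neither annotation nor strand setting is given in the sources used here, and overlapping genes can hold the same reads: co-culture replicate 1 had 183279 reads on TUBA1B and 183362 on TUBA1B-AS1. Such pairs, pseudogenes and gene copies are uncertain. The deposited normalized table was not used here.

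Genes passing filterByExpr at a minimum count of 10 were scaled by TMM and fitted in edgeR 4.0.16 (R 4.3.3), with 1 coefficient per group over all 5 libraries, 2 residual degrees of freedom and the edgeR 4 dispersion estimate. The quasi-likelihood test was adjusted by the Benjamini-Hochberg method, with calls under 0.05. Alternatives used DESeq2 1.42.0, limma 3.58.1, other scalings and filters, a replicate block, and each library left out. DESeq2 gave an adjusted p to 29282 genes, and its percentages are of all 34658. Log2 CPM and single-library differences used a prior count of 2, which shrinks differences of low genes. Differences between single libraries have no replicate check. The co-culture pair differed beyond sampling noise (mean chi-square per gene 5.95), as did the EX527 pair (152), so each library counted as 1 sample. An exact permutation test of 2 against 2 cannot go below p = 0.333. The 3-read floor covers counting error and not PCR duplication.

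The members and the 41 gene lists (949 genes, 44 entries matched by an older name) were chosen with earlier results of these data known. Named genes were the sirtuins, the 10 coding genes per direction with the widest gap between groups, the 8 per direction with the largest difference between the EX527 replicates (mean log2 CPM of at least 3), up to 3 members per list with the smallest edgeR p, and defining markers. VEGFA and the other HIF targets beside ANGPTL4, ADM and ERO1A, CDKN1A, PMAIP1, XAF1, EGR1, FASN, MT-CO1, ZEB1, ZEB2, ME1, LPIN1, RETN, ADRB3 and CIDEA were named after their values were seen. A few genes these rules select are not reported here. Positions, spans and GC content were read from GENCODE 44 (GRCh38), perhaps another annotation than the authors used, and promoter windows from RefSeq.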

Additional observations from a re-analysis of the deposited data

How the results depend on the processing

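Where the reported edgeR fit called 0 genes, it called 12 with at least 10 reads required in all 4 libraries and 21 with the older dispersion estimate, and DESeq2 called 3296. The 12 were MEOX1, LAMP3, FOLH1, DHRS2, IL1R2, GADD45A, PXDN, NIBAN1, DUSP15, STK32A, ID4 and UPP1. Leaving out each library gave 0 to 24074 calls, with 13001 without EX527 replicate 1 and 24074 without EX527 replicate 2. In those fits the lone EX527 library is assumed to vary like the co-culture pair. With a replicate block 859 genes were called. The labels used here do not say whether replicate numbers pair these libraries. The replicate differences of both groups correlated at -0.363 across 11268 genes at mean log2 CPM 4 or more, which are not independent. Across all genes tested the correlation was -0.12. These values cannot settle pairing, because the replicate differences of both groups also moved with GC content. A crossed replicate block, chosen after seeing the data, called 3382.

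Genes at an unadjusted p under 0.05 numbered 5459 higher with library size scaling and 1946 with limma-voom, and left-out libraries gave 424 to 13824 higher and 735 to 11016 lower. Genes separated 2-fold upward numbered 1554 at a prior count of 5, 828 with 10 reads in all 4 libraries, and 3278 to 9607 with a library left out. Downward the left-out range was 1761 to 5454. Genes 2-fold higher in EX527 replicate 1 than in replicate 2 numbered 2724 with 10 reads in all 4 libraries.

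The log2 fold change turned direction for SIRT1 (0.09) and SIRT2 (0.13) with library size only. With a library left out it ranged from -0.57 to 0.26 for SIRT2, from -0.71 to 0.04 for SIRT6 and from -0.20 to 0.39 for SIRT7, the turned values being those without EX527 replicate 1 for SIRT2 and SIRT6 and without EX527 replicate 2 for SIRT7. The cause was not tested. In 1378 other alternative fits of the sirtuins, widest-gap genes and named list members the direction and call were those reported, and in 576 the direction held and the gene passed the threshold. Medians of the lists moved by more than the replicate spread in 85 alternatives and by less in 503. At this depth 3 reads are 0.0574 to 0.0657 CPM before TMM scaling, which limits genes near that level.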

Other observations

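The genes in this section were chosen after their values were seen. NGFR, the low-affinity neurotrophin receptor, was read at 0.809 and 0.883 CPM in untreated co-culture, at 39.8 and 103 CPM under EX527, replicate 1 first, and at 1.52 CPM in the monoculture library (EX527 against untreated co-culture, log2 fold change 6.39, SE 0.68, edgeR adjusted p = 0.0768). Its antisense neighbour NGFR-AS1 was read at 1.89 and 1.75 CPM in untreated co-culture and at 40.0 and 97.1 CPM under EX527, and reads of the 2 genes cannot be told apart where they overlap. With DUSP15 and ANGPTL4, NGFR is a gene whose EX527 levels lay far above both co-culture and monoculture.

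The levels of some genes of motile cilia were looked up because of FOXJ1. TEKT2, a tektin of the axoneme, was read at 20.4 and 17.2 CPM in untreated co-culture and at 4.13 and 4.24 CPM under EX527. ZMYND10, a dynein assembly factor, was read at 11.9 and 11.2 CPM in untreated co-culture and at 3.37 and 2.79 CPM under EX527. DNAI1, an outer dynein arm gene, differed less, at 6.59 and 5.54 CPM in untreated co-culture and at 4.61 and 4.58 CPM under EX527. SPEF2, a sperm flagellum gene, was read at 14.4 and 15.6 CPM in untreated co-culture and at 11.5 and 7.62 CPM under EX527, and the ciliary transcription factor gene RFX3 at 21.6 and 25.0 CPM and then at 16.7 and 15.0 CPM. Members of the ID family also differed from each other. ID1 was read at 153 and 138 CPM in untreated co-culture and at 80.0 and 119 CPM under EX527, on the opposite side from ID3 and ID4, and ID2 at 19.6 and 17.3 CPM in untreated co-culture and at 18.3 and 16.9 CPM under EX527. BMP4, a secreted ligand, was read at 3.69 and 2.42 CPM in untreated co-culture and at 11 and 15.8 CPM under EX527. The inhibitory SMAD genes did not share one pattern: SMAD6 was read at 34.8 and 36.1 CPM in untreated co-culture and at 14.8 and 19.4 CPM under EX527, and SMAD7 at 12.9 and 11.9 CPM and then at 11.4 and 16.0 CPM.

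MALAT1, a nuclear noncoding RNA, was read at 7437 CPM in EX527 replicate 1, 1484 CPM in replicate 2, 1133 and 1118 CPM in untreated co-culture and 3518 CPM in monoculture.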
